A study of Mus musculus with 9 samples.

Results

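The core circadian clock genes are the transcription factors and repressors that keep daily time inside cells, here the 10 genes Arntl, Clock, Per1, Per2, Per3, Cry1, Cry2, Nr1d1, Nr1d2 and Dbp. They were found in the value table by gene symbol, using only probe sets that the array annotation gives to a single gene. This gave 15 probe sets of 7 genes, out of 25581 single-symbol probe sets and 14440 genes. Clock, Per1 and Nr1d1 were not analysed here. The study profiled 5 tumours of a mouse model of synovial sarcoma, a soft tissue cancer driven by the SYT-SSX fusion protein, and 4 samples of normal skeletal muscle, with 1 Affymetrix array per sample. The tumour mice are labelled MYF-5 CRE/SSM2, so that Cre recombinase is driven by Myf5, a gene of the muscle lineage. Tumour 1 is labelled CC23, tumours 2 and 3 are CC17-B and CC17-A, and tumours 4 and 5 are SSM5 and SSM4. Whether both CC17 samples came from 1 animal is not said. Muscles 1 and 4 are hind limb, muscle 2 is intercostal and muscle 3 is forelimb, all of them wild type. The groups thus differ in both genotype and tissue. Age, sex and strain are not given in the sources used here, and neither is the time of day at which any sample was taken. Whether arrays are separate animals is not stated either, so p-values measure the spread between these samples.

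In the clock, Arntl (also called Bmal1) pairs with Clock or its relative Npas2 and switches on genes that carry an E-box, among them the Per, Cry, Nr1d and Dbp genes. Per and Cry proteins then repress that pair, and Nr1d proteins repress Arntl, while Ror proteins activate it, so that most of these transcripts rise and fall each day and Arntl peaks about when the E-box targets are lowest. Skeletal muscle holds a strong clock of this kind, with Dbp among its most rhythmic outputs. A single sample therefore shows a level at 1 unknown time, and a difference between groups in overall level cannot be told apart from a difference in sampling time or phase.

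Levels are given as scaled intensity, the deposited array signal after the arrays were brought to a common trimmed mean. A level was taken as near background below the floor of its array, the 40th percentile of its values, which ran from 96.5 to 137. The labelled muscle tissue carried its defining transcripts: 14 of 14 fibre markers in the table were above the floor on every muscle array. Averaged over these 14 genes, the log2 level less the muscle mean was −3.81, −4.96, −7.22, −9.86 and −2.36 in tumours 1 to 5. In tumours 13 of them were called lower, where 17.9% of all genes tested were. All 6 tested proliferation markers were called higher in tumours, where 30.1% of all genes tested were. Of these 6, Bub1 was below the floor on all 4 muscle arrays and passed the filter on low values only through the tumours. Cdk1, Aurkb and Ccna2 were each below the floor on 2 muscle arrays. In such bulk samples, fewer cells of a type and less RNA per cell cannot be told apart. The ratio of 3-prime to 5-prime Actb signal, a sign of RNA quality, was 1.62 to 1.93 in muscle and 1.99 to 12.7 in tumours, with tumour 1 at 12.7 and tumour 4 at 4.54.

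Of the 7 clock genes, all of which passed the filter on low values, 4 fell in tumours, 0 rose (limma, 0 also at an unadjusted p under 0.05) and 3 were not called at an adjusted p under 0.05. Those that fell were Dbp, Per2, Nr1d2 and Cry2, and those not called were Arntl, Per3 and Cry1. Across all 10650 genes tested, 17.9% were called lower and 30.1% higher in tumours. For the same 4 clock genes every tumour array lay below every muscle array, as did 15.1% of all genes tested. The median log2 fold change of the 7 genes was −0.80, and that of all genes tested was 0.23. The scaling of the arrays moved the median of all genes between 0.04 and 0.53. Taken relative to it, over 5 scalings, Dbp lay between −2.83 and −2.77, Per2 between −1.86 and −1.75, Nr1d2 between −1.66 and −1.09 and Cry2 between −1.12 and −1.02. On this relative measure Per3, Cry1 and Arntl were below 0 under all 5 scalings as well, Arntl between −0.30 and −0.16. Apart from quantile normalization, the scalings differ only by a constant factor per array, which shifts every gene and the median nearly alike. Those scalings therefore agree on this measure by construction, and only quantile normalization could differ.

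**Figure D1:**
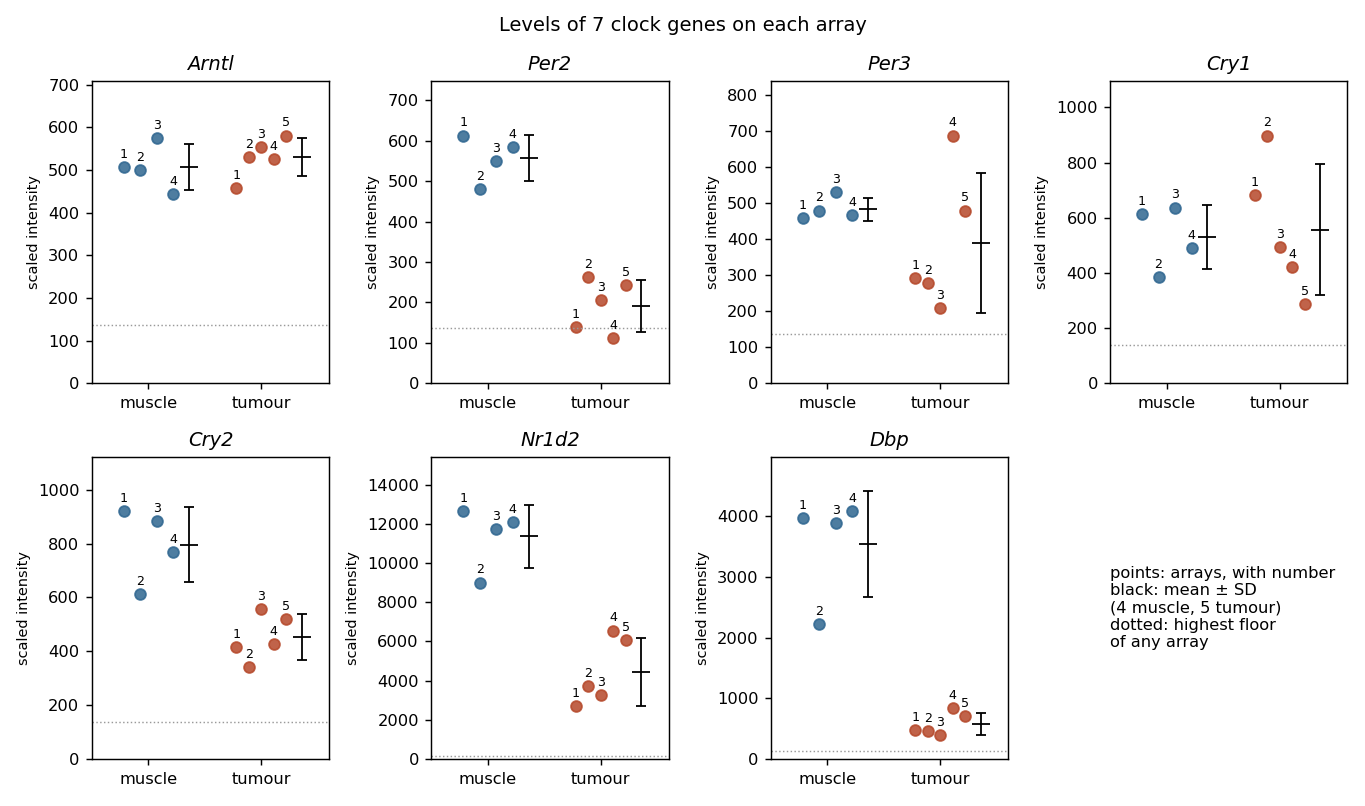
Scaled intensity (linear axes from 0) of the 7 clock genes on each array, 4 muscle (blue) and 5 tumour (red), numbered as in the text, with the group mean ± SD in black and the highest floor of any array dotted. Tumour and muscle points are separate for Dbp, Nr1d2, Per2 and Cry2 and overlap for Arntl, Per3 and Cry1, and Dbp on muscle array 2 stands at 2230, below the other muscle arrays.

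Among the activators, Arntl, whose protein is the DNA-binding partner without which the clock stops, was at nearly the same level in both tissues. By the probe set used for the gene (1425099_a_at), Arntl stood at 508, 499, 575 and 444 on muscle arrays 1 to 4, and at 459, 531, 555, 526 and 581 in tumours 1 to 5. The groups overlapped, and the spread among tumours was small. The means were 507 ± 53.5 (SD, n = 4) in muscle and 530 ± 45.7 (SD, n = 5) in tumours. The log2 fold change was 0.07 (SE 0.18, limma adjusted p = 0.779), with a 95% interval from −0.32 to 0.45. The within-tumour SD of Arntl was 0.12 on the log2 scale, and 1.63% of genes tested had a smaller one. Its other probe set (1457740_at) ran from 113 to 248 in muscle and from 97.1 to 354 in tumours, and was not called either, with adjusted p = 0.77. The sign of so small a difference depended on the scaling of the arrays, at −0.06 on the values as deposited and 0.37 when they were scaled by 70 ribosomal and proteasome genes.

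Arntl lies on chromosome 7, and RefSeq gives it 2 promoter windows (build GRCm38.p6, 250 bases before to 50 after a transcript start). The second, chr7:113207261-113207560 on the plus strand, is shown because it holds a match to AGGTCA, the core letters read by Nr1d and Ror receptors, which are the other arm of the loop. Capitals mark the match, 31 bases after the start, inside the transcribed part.
Arntl: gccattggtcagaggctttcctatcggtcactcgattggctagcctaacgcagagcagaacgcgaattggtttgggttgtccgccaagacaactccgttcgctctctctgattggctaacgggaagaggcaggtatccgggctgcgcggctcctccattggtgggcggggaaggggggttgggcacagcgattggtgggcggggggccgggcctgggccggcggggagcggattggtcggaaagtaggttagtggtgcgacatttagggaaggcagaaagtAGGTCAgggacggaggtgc

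Npas2, which can stand in for Clock, was higher in tumours. Npas2 stood at 371, 188, 184, 269 and 130 in tumours 1 to 5, and at 89.9, 37.5, 22.8 and 17.8 in muscle, below the floor on all 4 muscle arrays. Every tumour lay above every muscle array. Npas2 thus passed the filter on low values only through the tumours, where it was high, and under 3 alternatives (the 60th percentile filter, averaged probe sets, and leaving out tumours 1 and 4) it was not tested. Because the muscle values are near background, the difference is given as a bound, at least 1.95-fold higher in tumours. The bound itself was not tested. The fitted log2 fold change, 2.14 (limma adjusted p = 0.00182), rests on muscle values below the floor. It moved with the pseudocount, to 1.45 at a pseudocount of 64.

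The Per genes encode the repressors whose build-up and decay time the cycle. Per2 (1417602_at) was at 613, 480, 550 and 584 in muscle, and at 138, 262, 205, 113 and 242 in tumours 1 to 5. All tumours were below all muscle arrays, and the lowest were tumours 4 and 1. In tumour 1 the level of 138 lay only just above that array's floor of 137. The means were 557 ± 57.4 (SD, n = 4) and 192 ± 64.7 (SD, n = 5), and Per2 was 2.86-fold lower in tumours (log2 fold change −1.52, SE 0.27, adjusted p = 0.000817). Leaving out tumours 1 and 4, which had the highest Actb ratios, gave a log2 fold change of −1.18 (adjusted p = 0.00208).

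Per3 varied among the tumours by the probe set used for the gene (1421087_at). It stood at 457, 479, 529 and 467 in muscle, a narrow band with a log2 SD of 0.09, and 4.35% of genes tested varied less there. In tumours 1 to 5 Per3 was at 291, 277, 209, 687 and 479. Tumours 1, 2 and 3, the CC samples, were below all muscle arrays, tumour 4 was above them, and tumour 5 was within their range. The means were 483 ± 31.8 (SD, n = 4) and 389 ± 195 (SD, n = 5), and the log2 fold change of −0.43 (SE 0.31) was not called (adjusted p = 0.287). Its 95% interval ran from −1.11 to 0.26, and single tumours moved the value, to −0.66 without tumour 4 (adjusted p = 0.0649) and −0.25 without tumour 3 (adjusted p = 0.516). Scaled by ribosomal and proteasome genes, Per3 was at −0.12 (adjusted p = 0.808).

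The Per3 promoter on chromosome 4 (chr4:151044616-151044915, minus strand, GRCm38.p6, sequence from RefSeq) is shown because it carries 2 matches to TTATGTAA, a D-box, the element bound by Dbp, Tef and Hlf. Capitals mark them, 205 and 158 bases before the start. A match to these letters on either strand was present in 0.938% of the 32851 promoter windows of this length, and 0.0213% held more than 1.
Per3: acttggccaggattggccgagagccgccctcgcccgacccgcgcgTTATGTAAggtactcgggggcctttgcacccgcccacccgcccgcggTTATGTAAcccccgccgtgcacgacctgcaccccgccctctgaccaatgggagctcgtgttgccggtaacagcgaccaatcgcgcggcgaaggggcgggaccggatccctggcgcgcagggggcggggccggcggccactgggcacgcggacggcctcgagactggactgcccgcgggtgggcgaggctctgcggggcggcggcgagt

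The Cry genes encode the stronger repressors of the Arntl pair. Cry2 fell and Cry1 was not called, and the difference between them was not tested. Cry2 was at 920, 612, 885 and 768 in muscle, and at 415, 343, 557, 426 and 519 in tumours 1 to 5. The highest tumour, tumour 3, lay below the lowest muscle array, muscle 2. Cry2 averaged 796 ± 139 (SD, n = 4) in muscle and 452 ± 85.8 (SD, n = 5) in tumours, 1.74-fold lower (log2 difference −0.80, SE 0.21, adjusted p = 0.0092). The Cry2 call ended when arrays were scaled by the ribosomal and proteasome genes (−0.49, adjusted p = 0.123), the scaling under which the median of all genes was 0.53. Its adjusted p ran from 0.00174 to 0.123 across alternatives.

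Cry1 spread widely among tumours around a mean like that of muscle. It stood at 612, 384, 637 and 491 in muscle and at 681, 898, 493, 422 and 287 in tumours 1 to 5. Tumours 1 and 2 were above every muscle array and tumour 5 was below every one. The log2 fold change was −0.01 (SE 0.31, adjusted p = 0.983), with a 95% interval from −0.70 to 0.68, and its sign turned under several alternatives. Tumour 5, lowest for Cry1, had the highest level of muscle fibre markers among tumours. The part of muscle content in the Cry1 level was not tested.

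The Cry1 promoter on chromosome 10 (chr10:85185005-85185304, minus strand, GRCm38.p6) is shown because it was the only window of the 6 members with one in the RefSeq table that held CACGTG, the E-box read by Arntl and its partner. The match, in capitals, lies 60 bases before the start, and 7.15% of all promoter windows held one.
Cry1: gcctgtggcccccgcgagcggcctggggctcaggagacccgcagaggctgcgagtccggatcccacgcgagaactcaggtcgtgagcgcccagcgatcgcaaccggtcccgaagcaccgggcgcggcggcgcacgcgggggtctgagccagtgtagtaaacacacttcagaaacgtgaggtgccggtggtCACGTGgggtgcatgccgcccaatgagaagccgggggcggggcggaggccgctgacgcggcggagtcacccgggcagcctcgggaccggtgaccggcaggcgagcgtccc

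Nr1d2, also called Rev-erb beta, is a haem-binding nuclear receptor that represses Arntl, and it fell in tumours. By 1416958_at it stood at 12642, 9004, 11721 and 12091 in muscle and at 2680, 3736, 3269, 6554 and 6046 in tumours 1 to 5. Muscle 2 was the lowest of the muscle arrays, and tumours 4 and 5, both labelled SSM, were above the 3 CC tumours. Nr1d2 averaged 11364 ± 1618 (SD, n = 4) in muscle against 4457 ± 1733 (SD, n = 5), which is 2.68-fold lower in tumours (log2 fold change −1.42, SE 0.28, adjusted p = 0.00165). Its muscle SD was 0.22 on the log2 scale, and 0.05 without muscle 2. The other probe set of Nr1d2 (1416959_at) reached the floor on 5 arrays. Tested as a feature of its own it was at −1.31 (SE 0.57) and missed the threshold (adjusted p = 0.0855).

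The Nr1d2 promoter on chromosome 14 (chr14:18239057-18239356, minus strand, GRCm38.p6) holds the same AGGTCA letters as the Arntl window, 77 bases before the start, and is shown for that comparison. These 6 letters occurred in 16.3% of promoter windows.
Nr1d2: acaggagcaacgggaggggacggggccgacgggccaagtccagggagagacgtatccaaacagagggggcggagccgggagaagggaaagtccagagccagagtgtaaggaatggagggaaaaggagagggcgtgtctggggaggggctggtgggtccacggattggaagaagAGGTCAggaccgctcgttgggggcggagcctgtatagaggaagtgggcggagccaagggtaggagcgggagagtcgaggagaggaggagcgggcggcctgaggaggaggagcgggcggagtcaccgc

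Dbp, a transcription factor of the PAR bZIP family that carries the clock's signal to D-box genes, changed most of the 7. Dbp stood at 3967, 2230, 3880 and 4082 in muscle. The 3 limb muscles were within 3880 to 4082, with a log2 SD of 0.04, and 3.33% of genes tested had a smaller SD over those 3 arrays. The intercostal sample, muscle 2, was well below them, so leaving it out was bound to lower the SD. Over all 4 muscle arrays the log2 SD of Dbp was 0.42, and 66.8% of genes tested had a smaller one. In tumours 1 to 5 Dbp was at 484, 465, 394, 836 and 709, and again the SSM tumours 4 and 5 stood above the CC tumours. The means were 3540 ± 877 (SD, n = 4) and 578 ± 187 (SD, n = 5). Dbp was 6.05-fold lower in tumours (log2 fold change −2.60, SE 0.27, adjusted p = 3.35e-05), and over all alternatives the log2 fold change ran from −2.80 to −2.29. The highest tumour value, 836, was still below the lowest muscle value, 2230. The Dbp window (chr7:45704997-45705296, plus strand) held 0 matches to the motifs searched, which says only that these letters are not in this window.

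**Figure D2:**
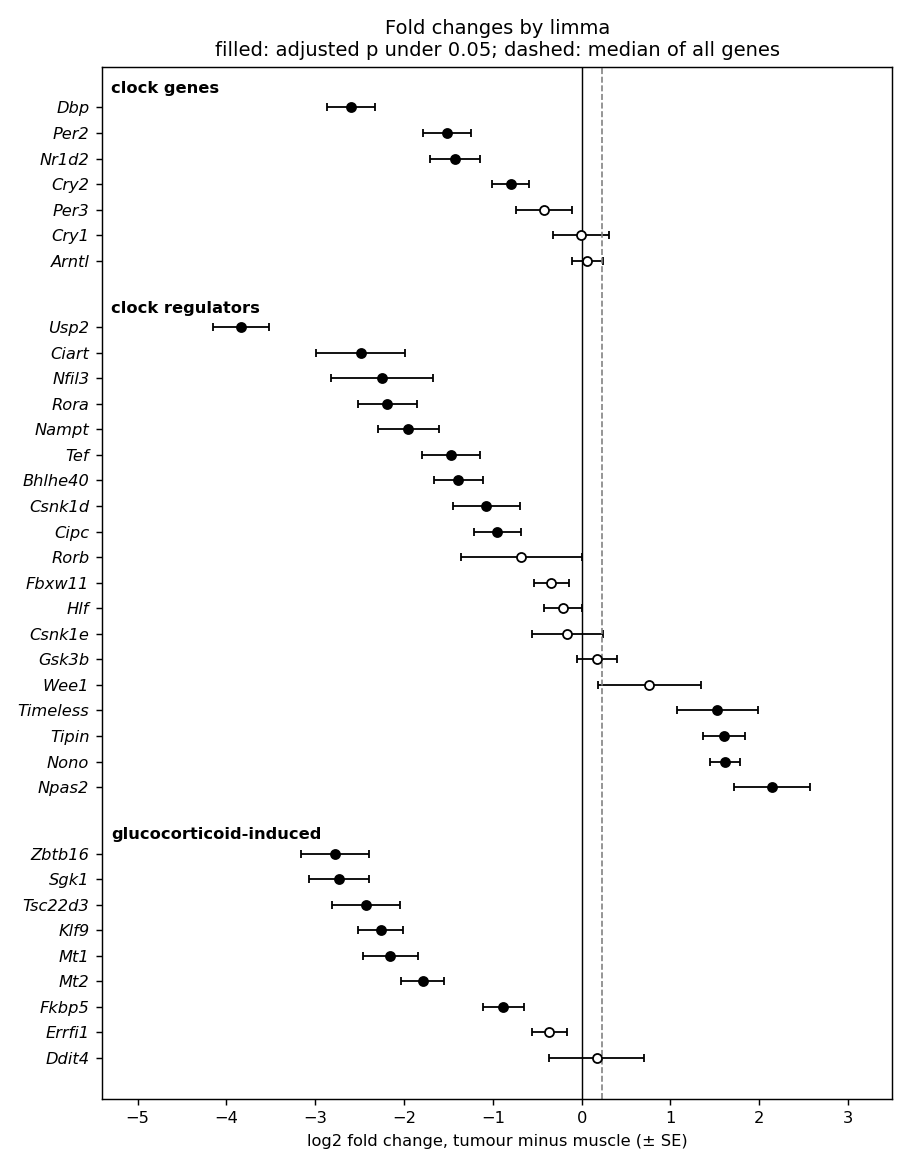
Log2 fold change, tumour minus muscle, with its SE, for the 7 clock genes, the 19 tested clock regulators and 9 glucocorticoid-induced genes (5 tumour and 4 muscle arrays). Filled points have an adjusted p under 0.05, the dashed line is the median of all genes at 0.23, and Dbp at −2.60 and Usp2 at −3.83 lie farthest left in the first and second blocks.

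Where a gene had several probe sets, they were compared. Treated each as a feature, 12 of the 15 clock probe sets were tested and 5 were called lower, where 16.5% of all probe sets tested were. The second tested probe set of Per2 (1457350_at) was at −1.49 (SE 0.50, adjusted p = 0.0304), close to the −1.52 of the first. It reached the floor on 6 arrays, and by it the groups overlapped, with muscle 2 at 132 and tumours 1 and 3 at 175 and 193. The other tested probe sets of Per3 had log2 fold changes of 0.09 and −0.03, and neither was called. Their spread was unlike that of the first. By 1441445_at Per3 ran from 247 to 498 in muscle and was at 498, 213, 320, 613 and 381 in tumours 1 to 5. Only tumour 2 was below all muscle arrays there. By 1458176_at it ran from 263 to 298 in muscle and from 220 to 301 in tumours. The 3 probe sets not tested, 1 of Per2 and 2 of Per3, reached the floor on at most 2 arrays.

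**Figure D3:**
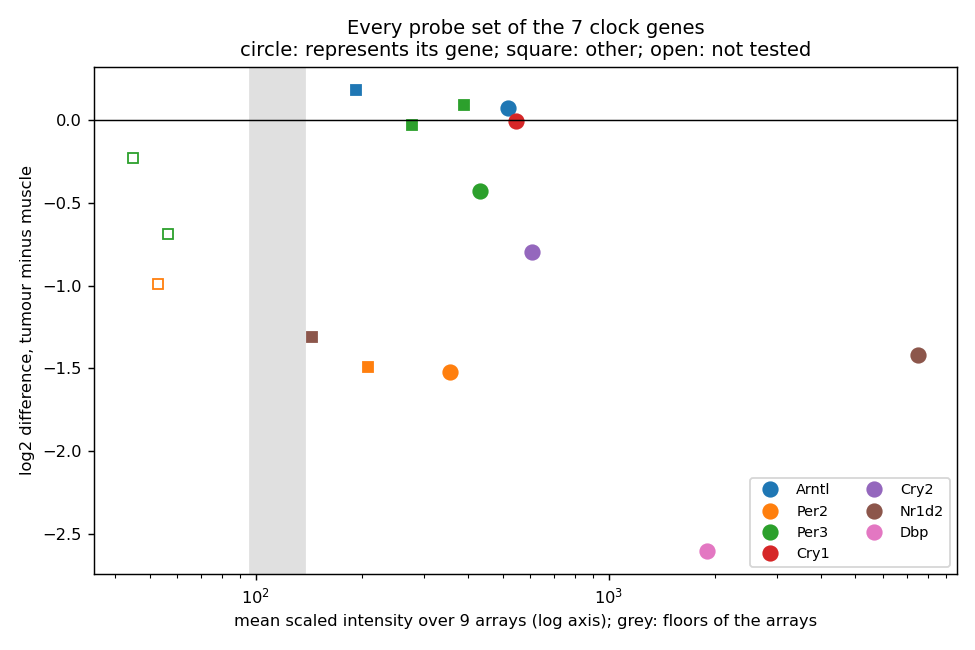
Log2 difference, tumour minus muscle, of each of the 15 probe sets against its mean scaled intensity over 9 arrays (log axis), coloured by gene, with open symbols for probe sets not tested and the arrays' floors in grey. The 3 open symbols lie left of the floors, and the tested probe sets of Per2 lie at −1.52 and −1.49 and those of Arntl at 0.07 and 0.18.

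The other genes of the clock were taken from a list of 26 regulators, of which 22 were in the table and 19 were tested. Of these, 9 fell, 4 rose and 6 were not called, with a median log2 fold change of −0.68. Across all genes tested, 17.9% were called lower and 30.1% higher. Rora, the nuclear receptor that activates Arntl against Nr1d, was at 2574, 1337, 1567 and 2288 in muscle and at 317, 235, 340, 616 and 644 in tumours (log2 fold change −2.19, SE 0.33, adjusted p = 0.000286). Averaging the Rora probe sets gave −1.50. Tef, a PAR bZIP factor like Dbp, was at 5328, 3158, 4724 and 5202 in muscle and at 1642, 739, 1844, 2461 and 2006 in tumours (−1.47, SE 0.33, adjusted p = 0.00334). In these genes, too, the tumours lay wholly below the muscle arrays.

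Hlf, the remaining PAR bZIP factor, was not called. It averaged 556 ± 83.7 (SD, n = 4) in muscle and 483 ± 111 (SD, n = 5) in tumours, and the log2 difference of −0.21 missed the threshold (adjusted p = 0.434). Nfil3, which binds the same D-box as a repressor, fell by 2.25 on the log2 scale (SE 0.57, adjusted p = 0.0073), with tumour 3 at 19.6, below its floor, and the other tumours at 159 to 314. Bhlhe40, an E-box repressor, fell by 1.39 (SE 0.27, adjusted p = 0.00165), from 3277 ± 767 (SD, n = 4) to 1270 ± 443 (SD, n = 5). Its relative Bhlhe41 did not pass the filter, with 8 of 9 arrays below the floor.

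Usp2, a deubiquitinase that acts on clock proteins, and Ciart, a repressor of the Arntl pair, also fell. Usp2 was at 6148, 2639, 5986 and 5680 in muscle and at 468, 327, 209, 264 and 425 in tumours, 14.3-fold lower (log2 fold change −3.83, SE 0.31, adjusted p = 9.41e-06). Like Dbp, it was close together in the limb muscles and lower in the intercostal sample. Ciart was at 513, 353, 601 and 529 in muscle and at 129, 10.8, 174, 69.4 and 78.8 in tumours, below the floor in 4 of 5 tumours. With most tumour values near background, the fitted log2 difference of −2.49 (SE 0.50, adjusted p = 0.0018) depended on the pseudocount, at −1.93 with 64 and −2.84 with 1. The Ciart promoter on chromosome 3 (chr3:95882179-95882478, minus strand, GRCm38.p6) is shown because it holds 3 E-boxes CACGTG, at 116, 58 and 44 bases before the start. At least 3 such matches were present in 0.0883% of promoter windows.
Ciart: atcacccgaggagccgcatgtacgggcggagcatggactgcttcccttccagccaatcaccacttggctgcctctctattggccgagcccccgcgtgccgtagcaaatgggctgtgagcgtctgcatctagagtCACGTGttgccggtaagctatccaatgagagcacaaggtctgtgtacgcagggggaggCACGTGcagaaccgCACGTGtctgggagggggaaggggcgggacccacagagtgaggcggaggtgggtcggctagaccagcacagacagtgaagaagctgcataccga

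Csnk1d and Csnk1e encode casein kinases that mark Per proteins for destruction. Csnk1d fell by 1.07 on the log2 scale (SE 0.38, adjusted p = 0.0347), but the groups overlapped and the call was not held by every setting. It ended without muscle 2 (adjusted p = 0.0901), muscle 3 (adjusted p = 0.0658), muscle 4 (adjusted p = 0.0738), tumour 2 (adjusted p = 0.0654) or tumour 4 (adjusted p = 0.0647), and with its probe sets averaged (−0.38, adjusted p = 0.256). It also ended with quantile normalization (−0.89, adjusted p = 0.115) and with the ribosomal and proteasome scaling (−0.76, adjusted p = 0.102), within a range of 0.00633 to 0.256. Csnk1e, at −0.16 (adjusted p = 0.769), missed the threshold.

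Besides Npas2, which passed the filter only through the tumours, the genes that rose were Nono, Timeless and Tipin. Nono is an RNA-binding partner of Per proteins, and Timeless and Tipin act together at DNA replication forks. Nono rose by 1.61 on the log2 scale (SE 0.17, adjusted p = 3.44e-05) by a probe set ending in _s_at. By a plain _at probe set it was at 0.51 (adjusted p = 0.535). Tipin rose by 1.61 (SE 0.24, adjusted p = 0.000272). In Timeless the groups overlapped, with muscle 3 at 299 and tumour 5 at 229, and muscles 1 and 2, at 84.6 and 54.3, were below the floor. Timeless rose by 1.53 (SE 0.46, adjusted p = 0.0171), a call that ended without muscle 1 (adjusted p = 0.0549) and with its probe sets averaged (adjusted p = 0.0592). Proliferation markers were on average 3.28 to 4.37 log2 units above the muscle mean in the tumours, and their part in the Timeless and Tipin levels was not tested.

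**Figure D4:**
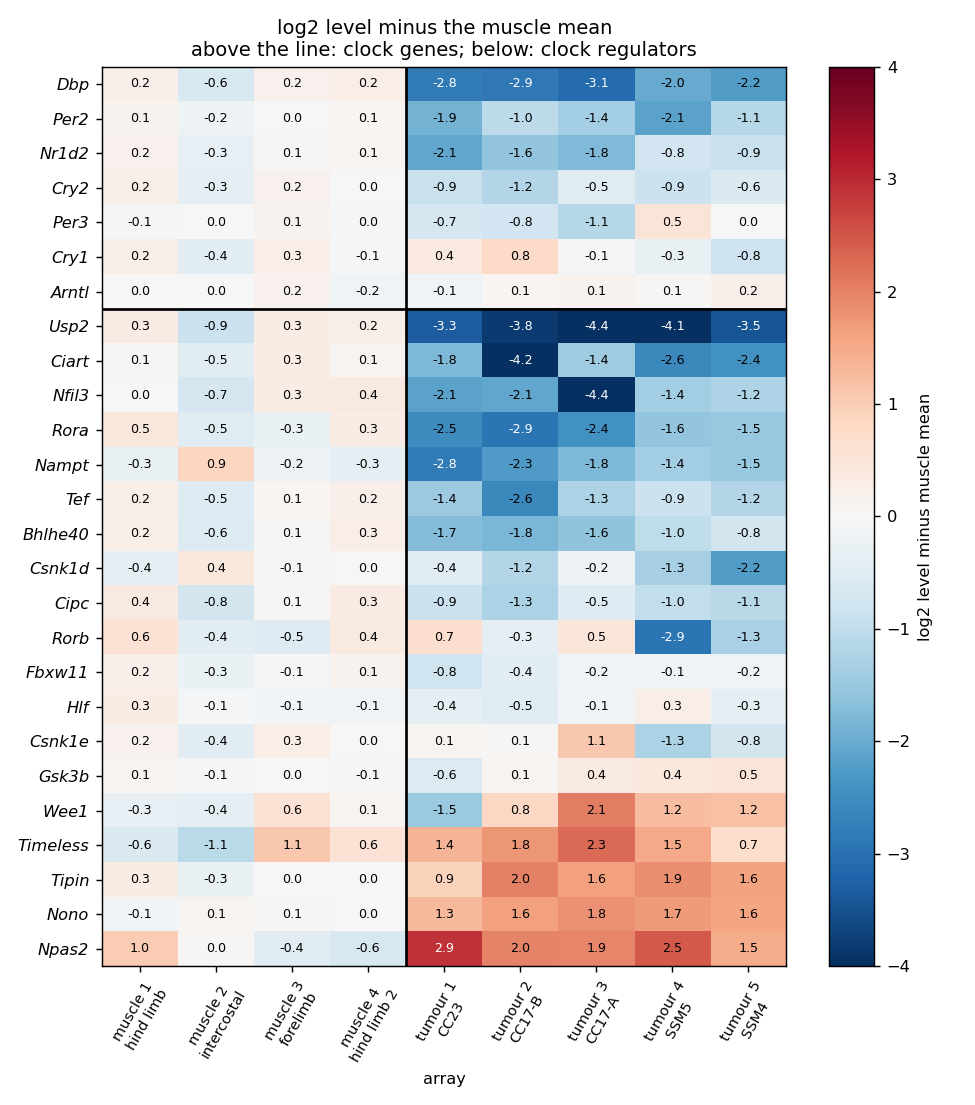
Log2 level minus the muscle mean, shown by colour and number, of the 7 clock genes (above the line) and 19 tested regulators (below) on each array, with colours saturating at 4 in either direction. Dbp runs from −3.08 to −2.02 in the tumours, Arntl stays between −0.18 and 0.20 on all arrays, and muscle 2 is the lowest muscle array for each of the clock genes that fell.

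The arrays of a group did not stand at 1 level. Muscle 2 was the lowest muscle array for 4 of these 4 genes, for 7 of the 9 regulators that fell and for 59.8% of all genes called lower. The exceptions among the regulators were Nampt and Csnk1d, where muscle 2 was the highest, as seen after their values were known. The other probe set of Nr1d2 (1416959_at) also had muscle 2 as the highest muscle array, at 541, where the hind limb arrays were at 125 and 118. On muscle 2 the average of the fibre markers stood at −0.37 log2 units from the muscle mean, and that of the 2 adipocyte markers analysed at 1.82. The part of tissue makeup in the level of Dbp there was not tested. Without muscle 2, the log2 fold changes were −2.80 for Dbp, −1.59 for Per2, −1.53 for Nr1d2 and −0.92 for Cry2, all 4 called.

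Among tumours, both SSM samples lay above all 3 CC samples for 2 of the 4 clock genes that fell, Dbp and Nr1d2, and for 5 of the 9 regulators. The same order held for 25.7% of all genes called lower, and it was not tested between tumours. Muscle fibre markers were at −9.86 in tumour 4 and −2.36 in tumour 5, the lowest and the highest tumour. The average of the 4 macrophage markers was higher in both SSM samples. It was at 1.16 and 1.47 log2 units above the muscle mean in tumours 4 and 5 against −0.24 to 0.80 in the others. So was the average of the 5 fibroblast markers, at 1.90 and 1.34 against −0.26 to 0.32. Against muscle, 1 of these 5 was called lower in tumours, 2 higher and 2 not called. Of the macrophage markers, 2 were called higher and 2 not called. The average of the proliferation markers was lower in both SSM samples, at 3.47 and 3.28 in tumours 4 and 5 against 3.96 to 4.37. The part of any of these in the order was not tested.

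By the probe set used for each gene, the spread of clock genes within a group differed from gene to gene. In muscle, the log2 SD ran from 0.09 for Per3 to 0.42 for Dbp, where the median of all genes tested was 0.31. In tumours it ran from 0.12 for Arntl to 0.66 for Per3, where the median was 0.46. For Cry1 and Per3 the tumour SD exceeded that of 68.7% and 73.0% of genes tested.

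Some clock genes also respond to glucocorticoid hormone, whose daily peak helps set tissue clocks, and 9 genes induced by that hormone were tested beside them. Of these, 7 fell, 0 rose and 2 were not called, with a median log2 fold change of −2.16, where 17.9% of all genes tested were called lower and 30.1% higher. Sgk1, a kinase of salt handling, was at 17143, 7511, 17926 and 15043 in muscle and at 1824, 2513, 1070, 3038 and 2373 in tumours (−2.73, SE 0.34, adjusted p = 9.22e-05). Zbtb16, a transcription factor, fell by 2.78 (SE 0.38, adjusted p = 0.000157), and Tsc22d3, which mediates the hormone's anti-inflammatory action, fell by 2.43 (SE 0.38, adjusted p = 0.000402). Muscle 2 was the lowest muscle array for 6 of the 7 genes that fell, and for 59.8% of all genes called lower.

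The genes whose array-to-array pattern was nearest to that of a clock gene were sought over all 10650 genes tested, as the root mean square difference of log2 levels after each gene's group means were taken off, over 9 arrays. For Dbp they were Fyco1, Anapc16 and Fam124a, at 0.122, 0.133 and 0.134, where the median gene was at 0.54. Fyco1 had a log2 fold change of −2.35, close to that of Dbp, and Anapc16 and Fam124a had −0.89 and −0.70. For Per2 they were Slc45a4, Pkia and Cox11, at 0.149 to 0.162, with log2 fold changes of −0.23, −3.42 and −1.55. For Arntl, whose own variation was small, they were Dcaf17, Psap and Pde12, at 0.059 to 0.083.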

How the data were processed

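Total RNA of 9 mouse samples was measured on Affymetrix arrays. Per the submitters' processing notes the authors used MAS5; its version, scaling target and background step are not given in the sources used here. The deposited values are probe set signals, as intensity on a linear scale, without detection calls. The table held 30508 probe sets. Left out were 7 control probe sets, 496 with several symbols and 4424 with none. RefSeq held the gene of 25498 among the 25581 probe sets that name 1 symbol. Because the 2% trimmed means of the arrays (430 to 610) differed by more than 10%, arrays were scaled to a common one, with factors from 0.909 to 1.29. For a gene with several probe sets, the one of highest mean log2 level was used. Genes reaching the floor (40th percentile) on at least 4 arrays were tested.

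Levels were log2(scaled value + 16), tested between groups by limma 3.58.1 under R 4.3.3 (lmFit, then eBayes with trend). Tests were two-sided, and p-values were adjusted by Benjamini-Hochberg across the whole set of tested genes. Of 10650 genes, 5112 were called at an adjusted p under 0.05 and 5862 had an unadjusted p under 0.05. The procedure was tested on simulated data. Precision is limited by how few arrays there are.

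The members and lists were chosen with earlier results of these data known. Named were all members, set regulators, at most 4 called regulators and 3 called glucocorticoid-induced genes in each direction, and the 3 nearest genes to Dbp, Arntl and Per2 (planned for Nr1d1 too, not analysed here). Alternatives covered scaling, pseudocount, filter, probe set choice, fit, the CC17 pair and each array left out. Chosen after seeing the data were leaving out tumours 1 and 4 and running the settings on the regulators and glucocorticoid-induced genes. Promoter windows are from RefSeq (GRCm38.p6), for 6 of 7 members. Searched on both strands were CACGTG (E-box), TTATGTAA and TTATGCAA (D-box), AGGTCA (receptor core letters) and TGACGTCA (cyclic AMP element).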

Additional observations from a re-analysis of the deposited data

Results flagged for a closer look

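Among 32 named genes, each group was searched for an array far from the rest by Dixon's ratio of the gap to the range, and 8 of 64 groups held one. Chance gives about 1 in 20 for independent groups, which these are not, since 9 of the genes were named for matching the array pattern of Dbp, Per2 or Arntl. Muscle 2, the intercostal sample, was the low array in 6 of them. It stood apart for Dbp at 2230, Usp2 at 2639, Zbtb16 at 2871, Fyco1 at 3500, Anapc16 at 1235 and Slc45a4 at 650. Fyco1, Anapc16 and Slc45a4 were named for the pattern of Dbp or Per2, so they are no separate evidence. The others were Nfil3 in tumour 3 at 19.6, below the floor, and Dcaf17 in muscle 3 at 398, the highest of its group, a gene named for the pattern of Arntl.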

How the results depend on the processing

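Of the 26 alternatives run, the exact permutation test gives an unadjusted p and so no call. Under all the others Dbp, Per2 and Nr1d2 stayed called lower. Cry2 lost its call under 1, given above. The clock genes called lower therefore numbered 4, or 3 in that setting, and 0 were called higher in any. The regulators called lower ran from 7 to 9 and those called higher from 2, with all probe sets averaged, to 5, with array weights or without tumour 1. The cause was not tested.

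Signs turned only for genes that were not called. Arntl was at −0.06 as deposited, −0.13 after median centring and −0.21 after quantile normalization. Scaling by ribosomal and proteasome genes, which raised the median of all genes from 0.23 to 0.53, put Cry1 at 0.29, Hlf at 0.09, Csnk1e at 0.15, Psap at 0.31 and Slc45a4 at 0.08. Without 1 array, Cry1 ran from −0.20 to 0.19, Csnk1e from −0.47 to 0.12 and Psap from −0.03 to 0.06. Without tumours 1 and 4, Csnk1e was at 0.13, Psap at 0.05 and Slc45a4 at 0.05. Psap was at 0.58 with quantile normalization, where it was called (adjusted p = 0.033), and at 0.04 with array weights. Higher calls made up 62.6% of all calls, 51.8% after median centring and 76.7% by the ribosomal and proteasome scaling. By exact permutation over all splits of the arrays (two-sided, unadjusted), Dbp, Per2 and Cry2 had p = 0.00794, the smallest possible, and Nr1d2 p = 0.0159. A random block for the CC17 pair could not be fitted, as limma estimates no correlation from a single pair. Signal over background limits Per2 in tumours 1 and 4, Ciart in tumours, Npas2 in muscle and Timeless in muscles 1 and 2.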
